A study of Mus musculus with 12 samples.

Results

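The Schlafen genes are a family of interferon-inducible genes that sit side by side on mouse chromosome 11. The deposited table of 55291 gene symbols held 7 family members picked by symbol, namely Slfn1, Slfn2, Slfn3, Slfn4, Slfn5, Slfn8 and Slfn9, and all 7 passed the filter on low values that left 19633 genes for testing. They were measured by RNA-seq in alveolar macrophages, phagocytes that live in the air sacs of the lung, taken by flow sorting from female C57BL6/NJ mice aged 8 to 11 weeks. The ozone group (6 mice) was exposed to ozone at 0.8 ppm on 4 days in a row, 4 h each day, the control group (6 mice) breathed filtered air on the same schedule, and lungs were collected 3 days later. The mice were sorted in 2 batches with 3 mice of each group in each. The members were proposed with the difference between ozone and filtered air already known, so that difference is described for them here without a test.

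Schlafen proteins share an N-terminal core that, in several members, cuts or binds transfer RNA. The mouse family is usually divided by length. Slfn1 and Slfn2 are short, Slfn3 and Slfn4 are intermediate and carry an added middle domain, and Slfn5, Slfn8, Slfn9 and Slfn14 are long and end in a helicase-like domain. Type I interferon induces many of them in myeloid cells through STAT proteins and interferon-stimulated response elements. The family is best known for growth restraint in lymphocytes, for the loss of quiescence in T cells and monocytes of Slfn2-mutant mice, and for Slfn4 in immature myeloid cells.

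Each value is variance-stabilized expression on a log2 scale, given relative to the filtered-air mean of that gene, which is 0 in every gene. The table therefore orders the mice within a gene and does not say whether 1 member is more abundant than another. The total number of reads is unknown. Relative depth, read from the size of 1 read among the lowest values, lay between 0.871 and 1.22 in the 12 mice, and RNA integrity numbers lay between 8.9 and 9.7. The scale is compressed for genes with few reads. If a library of average depth went from 100 to 200 reads for a gene, the value would move by 0.405, and from 1000 to 2000 reads by 0.812. Because abundance was not kept, the labelled cell type could not be checked against its markers. All 17 listed alveolar macrophage markers, among them Siglecf, Marco, Pparg and Itgax, had reads in enough mice to be kept, but so had all 11 T cell and all 10 epithelial markers. Of those 17, 2 were called higher and 1 lower after ozone in limma, where 4.25% of all genes were called. Each mouse carries its own animal number in the labels.

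The cluster spans 335 kb from Slfn5 to Slfn14 on GRCm38 in GENCODE M21, the build named in the submitters' processing notes as mm10. Slfn5 comes first (chr11:82951349-82964840, forward strand). Slfn9 (chr11:82978390-82991830), Slfn8 (chr11:83002158-83020810) and the pseudogene Slfn10-ps (chr11:83028130-83040042) follow as tandem copies on the reverse strand. Slfn2 (chr11:83065112-83070678), Slfn1 (chr11:83116849-83122670), Slfn4 (chr11:83175186-83190216) and Slfn3 (chr11:83191330-83215154) then lie on the forward strand. Slfn14 (chr11:83275110-83286726, reverse strand) closes the row. Longest coding lengths, without the stop codon, were 1011 bases in Slfn1 and 1134 in Slfn2. Slfn3 had 1920 and Slfn4 had 1806. Slfn5 had 2652, and Slfn8 and Slfn9 had 2730 each, so annotated lengths followed the division into short, intermediate and long members.

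Slfn9 and Slfn8 are the copies on which the results turn, because they lie 10.3 kb apart, are alike in sequence and took different values after ozone. Their coding sequences aligned over 2730 bases with 92.7% identity. The opening 60 coding bases of each are shown here from the start codon, with the 10 bases that differ between them in capitals, to show how a read can tell them apart.
Slfn9: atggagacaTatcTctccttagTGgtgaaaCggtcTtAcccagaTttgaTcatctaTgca
Slfn8: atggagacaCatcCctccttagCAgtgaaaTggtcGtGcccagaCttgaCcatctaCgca
Reads were 50 bases long from each end, per the labels. Of the distinct 50-base windows in Slfn9 transcripts, 11.5% (684 of 5963) also occurred in a transcript of another gene, 483 of them in Slfn10-ps and 389 in Slfn8. In Slfn8 the share was 14.6%, in Slfn10-ps 19.7%, in Slfn3 15.6% and in Slfn4 10.8%, the last 2 sharing 252 windows with each other. Slfn5 (3.37%), Slfn2 (4.27%) and Slfn1 (0.606%) shared less, and Slfn14 shared 0 windows. Values of Slfn3, Slfn4, Slfn8, Slfn9 and Slfn10-ps are therefore uncertain to the extent that shared reads were split among copies, and how the authors assigned such reads is not given in the sources used here. On the opposite strand Slfn5 overlaps the antisense gene Slfn5os, and Slfn2 overlaps Gm20234. The library kit keeps strand, per the labels, but the strand setting of the counting is not given in the sources used here.

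**Figure D1:**
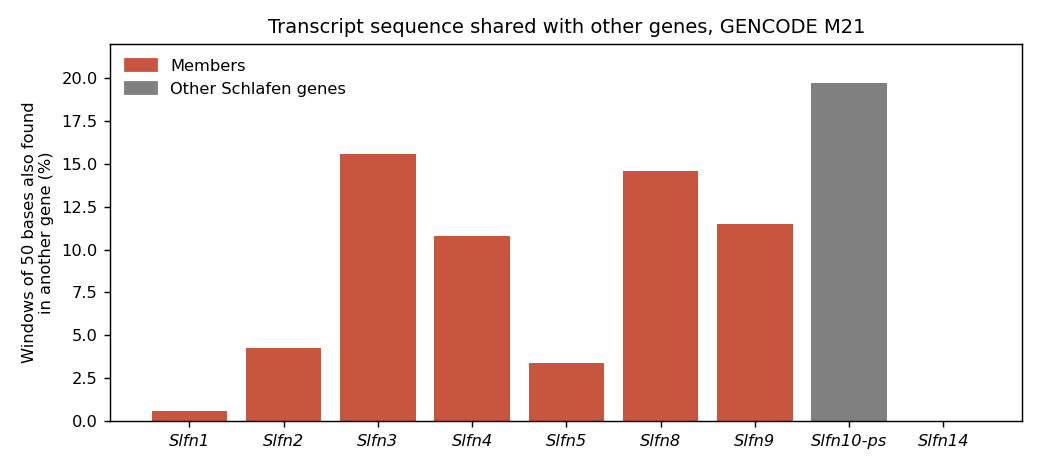
Bars give, for each Schlafen gene, the percentage of distinct 50-base windows of its GENCODE M21 transcripts that also occur in a transcript of another gene; members are red and other Schlafen genes grey. Slfn10-ps has the highest share at 19.7%, the members Slfn3 and Slfn8 stand at 15.6% and 14.6%, and Slfn1 and Slfn14 stand near or at 0.

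The start sites of both copies were compared as well, in the RefSeq windows of the build GRCm38.p6 that run from 250 bases before to 50 after a start. The 250 upstream bases of Slfn9 (chr11:82991831-82992080, reverse strand) and Slfn8 (chr11:83020811-83021060, reverse strand) are given 5′ to 3′ in the direction of the gene. Capitals mark the match to the core of the interferon-stimulated response element, searched on both strands as GAAA, any 2 bases and GAAA again, which both hold on the strand opposite to the one shown.
Slfn9: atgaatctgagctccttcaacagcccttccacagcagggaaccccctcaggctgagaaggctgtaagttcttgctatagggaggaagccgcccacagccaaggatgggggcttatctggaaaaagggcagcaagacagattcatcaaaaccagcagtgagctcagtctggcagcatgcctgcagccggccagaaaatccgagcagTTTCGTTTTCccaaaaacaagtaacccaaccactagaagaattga
Slfn8: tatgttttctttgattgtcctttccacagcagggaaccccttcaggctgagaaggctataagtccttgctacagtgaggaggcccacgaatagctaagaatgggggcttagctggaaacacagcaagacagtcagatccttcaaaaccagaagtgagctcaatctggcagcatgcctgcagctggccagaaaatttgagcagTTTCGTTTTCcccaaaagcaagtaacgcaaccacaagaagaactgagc
The 10 matched bases, TTTCGTTTTC, were the same in both genes and began at position -45 from the start in Slfn9 and -48 in Slfn8. The windows aligned over 245 bases with 83.3% identity. All 7 members had a RefSeq window, and a match on either strand was found in 3 of them, the long members Slfn5 (GAAAAAGAAA, at position -155), Slfn8 and Slfn9. The Slfn5 window lies inside the annotated gene and overlaps 2 annotated exons, whereas those shown for Slfn8 and Slfn9 overlap 0. Among all 32851 windows of this length, 3.44% held a match. The gamma-activated sequence TTCNNNGAA was found in 0 of the 7 members and in 8.30% of all windows. A match describes the letters in these windows and no binding was measured.

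Of the 7 members, Slfn9 differed most between the exposure groups. After ozone the lowest Slfn9 value was 0.45, the median 0.54 and the highest 0.64. In filtered air the lowest was -0.16, the median -0.02 and the highest 0.20. Every ozone mouse thus lay above every filtered-air mouse, with a gap between the groups wider than either group's SD. The ozone mean was 0.55 ± 0.0676 (SD, n = 6) and the filtered-air mean 0 ± 0.134 (SD, n = 6), a difference of 0.55 with an SE of 0.0586 on the log2 scale. At a read number where the scale is a plain log2 this would be a 1.47-fold difference, and more where Slfn9 has few reads. The difference was 0.55 in each flow-sort batch taken alone (0.548 in batch 1 and 0.554 in batch 2). Each batch held 3 mice of each group, and the values were already batch-corrected. Slfn9 was called in batch 1 alone and not in batch 2 alone, where 0 of 19633 genes were called. In bulk samples such as these, a change in the number of cells of a type and a change in RNA per cell cannot be told apart. The remaining 6 members overlapped between the groups, as the plot of values by mouse shows.

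**Figure D2:**
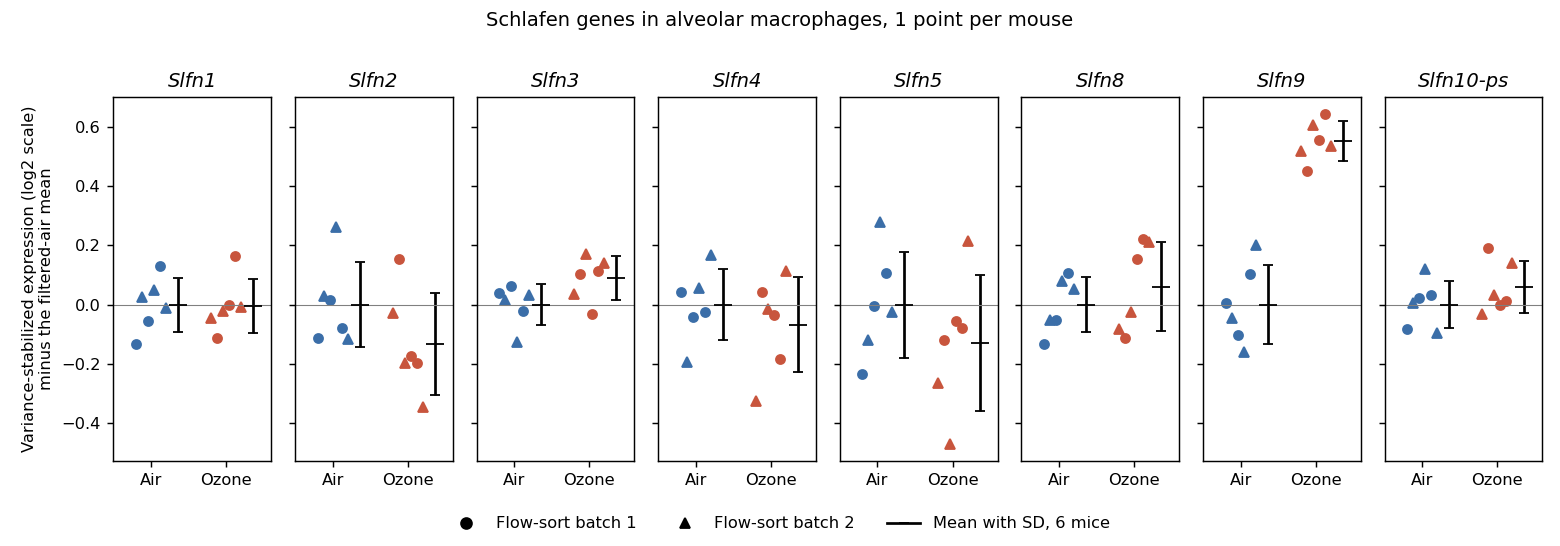
Each panel plots 1 gene, with 1 point per mouse (circles for flow-sort batch 1, triangles for batch 2) and the mean with SD of 6 mice in black; the vertical axis is variance-stabilized expression on a log2 scale minus the filtered-air mean. Slfn9 after ozone lies between 0.45 and 0.64, above all filtered-air mice, while the groups overlap in the other panels.

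In the fit over all genes with limma and Benjamini-Hochberg adjustment, 1 of 7 members (Slfn9) was called higher and 0 lower, where 4.25% of all genes were called, 2.41% higher and 1.84% lower. The groups did not overlap in 1 of 7 members, against 3.53% of all genes (1.96% with ozone higher and 1.58% with ozone lower). Since the members were chosen with this contrast known, these counts are given as a description. The median difference of the 7 members was -0.0048, next to -0.0033 over all genes, and 3 of the 7 had a higher mean after ozone, where 48% of all genes did.

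Of the other long members, Slfn8 and Slfn5 did not follow Slfn9, and Slfn14 was not tested. Slfn8, the neighbouring copy, ran from -0.11 through a median of 0.064 to 0.22 after ozone and from -0.13 through 0.00017 to 0.11 in filtered air. The groups overlapped, and ozone mice 4, 5 and 6 lay above all filtered-air mice. Its difference was 0.061 (SE 0.0673), from an ozone mean of 0.061 ± 0.152 (SD, n = 6) and a filtered-air mean of 0 ± 0.0937 (SD, n = 6). It was 0.11 in batch 1 and 0.0077 in batch 2. Without 1 mouse it ran from 0.025 (ozone mouse 5) to 0.099 (ozone mouse 2), and it was 0.028 without ozone mouse 6, 0.031 without filtered-air mouse 1, 0.041 without ozone mouse 4 and 0.093 without ozone mouse 1. Taken within each mouse, Slfn9 minus Slfn8 lay between 0.32 and 0.63 after ozone and between -0.24 and 0.15 in filtered air. Slfn5, which in human cells is studied as a regulator of interferon-responsive transcription, had the widest spread of the family. Its values ran from -0.47 through -0.10 to 0.22 after ozone and from -0.24 through -0.015 to 0.28 in filtered air, with a difference of -0.13 (SE 0.103). Ozone mouse 3 was lowest of the 12 and filtered-air mouse 4 highest, with ozone mouse 6 highest of its group. Without ozone mouse 3 the difference was -0.054, without filtered-air mouse 4 it was -0.068, and without ozone mouse 6 it was -0.21. It was -0.041 in batch 1 and -0.22 in batch 2.

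Among the short members, Slfn1 showed no shift beyond its spread. It ran from -0.11 through -0.015 to 0.16 after ozone and from -0.13 through 0.0065 to 0.13 in filtered air, with a difference of -0.0048 (SE 0.0526). Slfn2, the member linked to quiescence of T cells and monocytes, ran from -0.34 through -0.19 to 0.15 after ozone and from -0.12 through -0.032 to 0.26 in filtered air. Its difference was -0.13 (SE 0.0815), and 4 ozone mice lay below all filtered-air mice while ozone mouse 2 lay above all but 1 of them. Filtered-air mouse 4 held the highest Slfn2 value, and without it the difference was -0.074 (SE 0.0729). That mouse had the lowest RNA integrity number (8.9). Among filtered-air mice it also had the highest means of the monocyte (0.33), NK cell (0.31) and B cell (0.33) marker lists described below. Its mean of the cell division list was the lowest (-0.23). The Slfn2 difference was -0.11 with RNA integrity as a covariate and -0.085 without ozone mouse 6. It was -0.015 in batch 1 and -0.25 in batch 2.

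The intermediate members Slfn3 and Slfn4 share 92.1% of 1788 aligned coding bases. Slfn3 ran from -0.032 through 0.11 to 0.17 after ozone and from -0.13 through 0.023 to 0.062 in filtered air. Its difference was 0.088 (SE 0.0447), and 4 of 6 ozone mice lay above all filtered-air mice. It was 0.034 in batch 1 and 0.14 in batch 2. Slfn4, which marks immature myeloid cells in other tissues, ran from -0.32 through -0.025 to 0.11 after ozone and from -0.20 through 0.0078 to 0.17 in filtered air. Its difference was -0.067 (SE 0.0743), and the groups overlapped. Without ozone mouse 1 it was -0.010 and without filtered-air mouse 2 it was -0.11. It was -0.030 without filtered-air mouse 6, -0.041 without ozone mouse 5 and -0.11 without ozone mouse 6.

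The Schlafen genes outside the 7 members were near the limit of detection or did not pass the test. The pseudogene Slfn10-ps, which shares 483 windows with Slfn9, had an ozone mean of 0.058 ± 0.0877 (SD, n = 6) and a filtered-air mean of 0 ± 0.0795 (SD, n = 6) (limma's adjusted p = 0.642). Its difference was 0.028 without ozone mouse 2 and 0.037 without filtered-air mouse 6. Slfn9 minus Slfn10-ps within each mouse lay between 0.26 and 0.63 after ozone, and between -0.28 and 0.30 in filtered air, so these ranges overlapped slightly. Slfn14 lay at the shared minimum in 11 mice, and its value in ozone mouse 2 corresponded to 2.01 reads. Slfn5os also lay at the minimum in 11 mice and had 1 read, again in ozone mouse 2. Slfnl1, a Schlafen-like gene on chromosome 4, had 1 read in each of 3 filtered-air mice and in 1 ozone mouse, and was at the minimum in the other 8. These 3 genes were not tested.

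**Figure D3:**
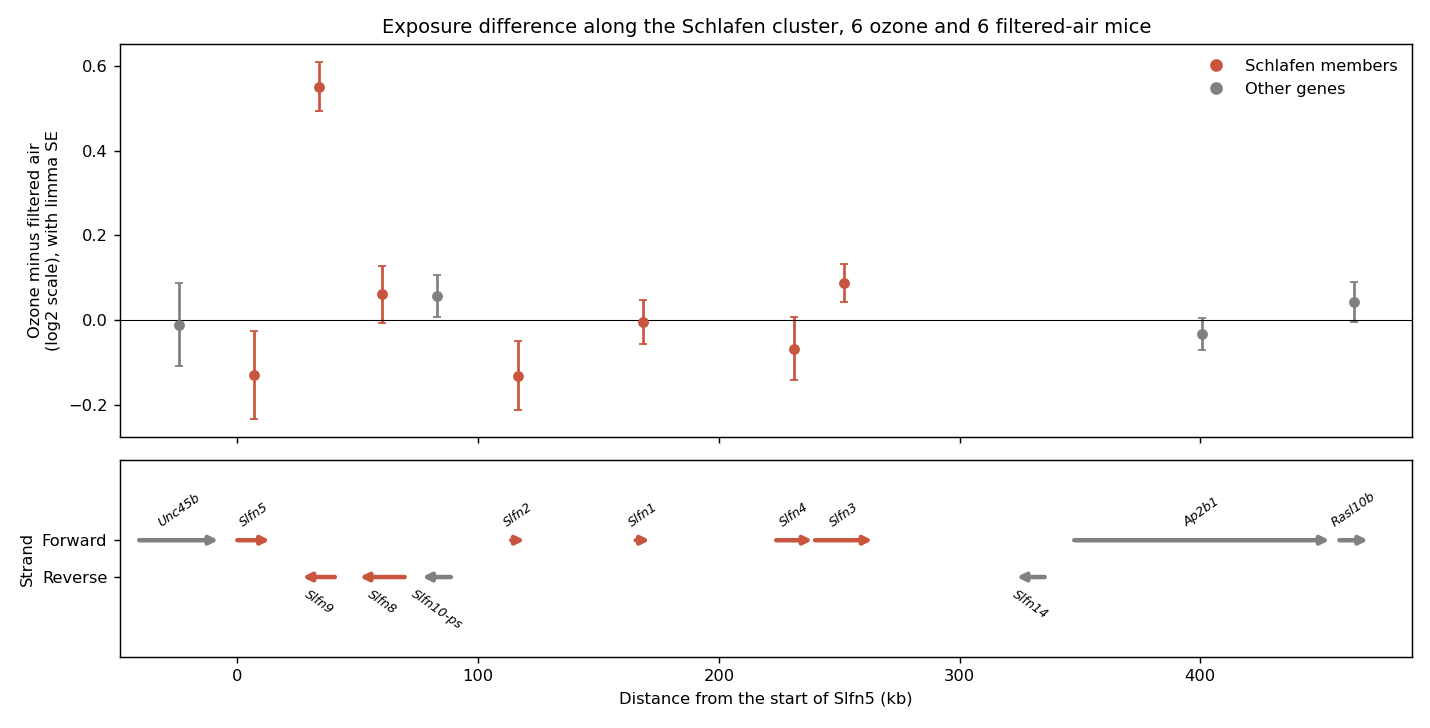
The upper panel plots the difference between ozone and filtered air (log2 scale) with limma's SE for the tested genes of the Schlafen cluster and some flanking genes, against distance from the start of Slfn5 in kb; the lower panel draws each gene as an arrow on its strand. Slfn9 stands at 0.55, and its neighbours Slfn5 and Slfn8 stand at -0.13 and 0.061.

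Genes around the cluster were mostly not called. Of 16 listed genes around the cluster, 14 were kept, 1 was called lower and 0 higher in limma, with a median difference of 0.00019. The called gene was Rffl, which encodes a ubiquitin ligase and lies before Slfn5. Its ozone mean was -0.21 ± 0.107 (SD, n = 6), next to 0 ± 0.0686 for filtered air (limma's adjusted p = 0.0356). Dropping 1 mouse ended this call in 9 of 12 cases. Unc45b, the flanking gene next to Slfn5 and named for its position, had a difference of -0.011 (SE 0.0983) and was not called.

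Whether the exposure effect differed between sort batches is a question the choice of members did not use. In limma's interaction test 0 of 19633 genes (0%) had an adjusted p under 0.05, with 510 (2.6%) at an unadjusted p under 0.05, and 0 of the 7 members were among the latter. The interaction, batch 2 minus batch 1, was 0.0060 (SE 0.122) in Slfn9. It was largest in size in Slfn2, at -0.23 (SE 0.157, unadjusted p = 0.159 in limma).

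The pathways that surround the family were described with lists of genes. Of 10 interferon ligands 2 were kept (Ifng and Ifnk) and 0 were called, the smallest adjusted p being that of Ifng (difference -0.088, and -0.057 without filtered-air mouse 4, adjusted p = 0.372 in limma). All 6 interferon receptor genes were kept and 0 were called. The smallest p there was that of Ifngr1 (difference -0.12, adjusted p = 0.334). Of 20 regulators of the JAK-STAT and IRF class, 1 was called lower and 0 higher, with a median difference of -0.025. It was Stat3, a transcription factor of cytokine receptors, at -0.17 ± 0.0654 (SD, n = 6) against 0 ± 0.0785 (limma's adjusted p = 0.0484), and its call was lost in 11 of the 12 fits without 1 mouse. Of 13 kept sensors upstream of interferon, 1 was called lower. It was Myd88, the adaptor of most Toll-like receptors, with a difference of -0.15 (SE 0.0394, adjusted p = 0.0460), lost in 10 of 12 such fits.

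Interferon-stimulated effector genes, the class to which the Schlafen family belongs, had 2 of 45 kept genes called in limma, where 4.25% of all genes were called. Of the 45, 1 was called higher and 1 lower, 25 had a higher mean after ozone, and the median difference was 0.0075. Ifi27l2a was higher by 0.17 (SE 0.0398, adjusted p = 0.0277) with groups that did not overlap. Ifi207, a member of the interferon-inducible p200 family, was lower by -0.28 on the log2 scale (SE 0.0725, adjusted p = 0.0414). Leaving out 1 mouse ended the first call in 7 of 12 fits and the second in 9 of 12. Both calls were also lost with quantile normalization and in either batch alone. The Ifi207 call was further lost with no filter, with a variance trend and with RNA integrity as a covariate.

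Genes tied to the family by function were then compared. Genes of transfer RNA cleavage and its protection, such as the ribonuclease inhibitor Rnh1 and the methyltransferase Nsun2, had 11 of 15 members kept, 0 called and a median difference of -0.0073, with Elac2 at the smallest p (difference 0.059, adjusted p = 0.429 in limma). Hedgehog genes that have been tied to Slfn4, 9 in number, had 0 called and a median of -0.0027, with Gli2 at the smallest p (adjusted p = 0.642). Cell division genes stood higher as a group, as already known for these samples. All 24 were kept, 22 were called higher and 0 lower, and the median difference was 0.46. The smallest p-values were those of Rrm1 (0.46, SE 0.0515), Tyms (0.42, SE 0.0516) and Mcm2 (0.43, SE 0.0539), which serve nucleotide supply and replication (limma's adjusted p = 0.000402, 0.00071 and 0.000737). Quiescence regulators had 1 of 19 called, the antiproliferative gene Tob1, which fell by 0.32 on the log2 scale (SE 0.0518, adjusted p = 0.00357). The median difference of that list was 0.055, and 10 of the 19 had a higher mean after ozone. Of all genes, 4.25% were called.

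Members were next compared within the exposure groups, as deviations of each mouse from its group mean, which leave the difference between the groups out. Of the 21 pairs of members, 3 had a permutation p under 0.05, and 1 passed adjustment over the 21 pairs. That pair was Slfn1 and Slfn8 (n = 12 mice, Pearson r = 0.784, permutation p = 0.00032, adjusted p = 0.00672, Spearman rho = 0.797, permutation p = 0.00092, adjusted p = 0.0193). Without the 2 mice farthest out in Slfn1 r was 0.71, and it was 0.866 in filtered-air mice and 0.767 in ozone mice. The pair's call was lost without ozone mouse 1 or ozone mouse 2 and when deviations were taken from group means within each batch, where r was 0.771. Slfn5 and Slfn8 (r = 0.71, permutation p = 0.0145, adjusted p = 0.102) and Slfn2 and Slfn9 (r = -0.688, permutation p = 0.00905, adjusted p = 0.095) did not pass adjustment. The copies Slfn8 and Slfn9 had r = 0.344 (permutation p = 0.218) over the same mice. Slfn9 and Slfn10-ps had r = -0.629, and shared reads as a part of that value were not tested.

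The genes most like each member by the same deviations over 12 mice were listed as a description, out of 19633. For Slfn8 they were Trbv17 (r = 0.974), a variable segment of the T cell receptor beta chain, Eln (0.967), which encodes elastin, and H2-Q7 (0.953), a class I histocompatibility gene. For Slfn9 they were Zfp319 (0.961), Aspm (0.956), a protein of the mitotic spindle pole, and Gm1966 (0.933). Slfn1 was nearest to Cd163 (0.928), a macrophage scavenger receptor, Trim14 (0.918) and Tdp1 (0.916). Slfn5 was nearest to Itpr3 (0.961), Ece1 (0.955) and Fgfr1 (0.922). Slfn2 was nearest to Pwp1 (0.954), Cckar (0.938) and Gm45472 (0.931). Slfn3 was nearest to Gm16439 (0.969), Cep78 (0.939) and Gm49727 (0.903), and Slfn4 to Atg16l1 (0.957), Map11 (0.953) and Ccdc146 (0.941). With so many genes and 12 mice, values of this size occur for every member, and these names say nothing of shared control.

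Each member was also set against the mean of every list of at least 5 kept genes, 21 lists and 147 relations in all, after the pairs had been seen. In a permutation test within groups 32 relations had a p under 0.05 and 12 passed adjustment over the 147. Of the 21 lists, Slfn8 followed those of T cells and dendritic cells most closely. Its r was 0.636 with monocyte, 0.463 with NK cell, 0.426 with neutrophil and 0.357 with B cell markers. With fibroblast or muscle cell markers it was 0.759. With the 11 T cell markers, which include Cd3d, Cd3e, Cd4, Cd8a and Lck, its r over 12 mice was 0.915 (permutation p = 7e-05, adjusted p = 0.00514, rho = 0.874, permutation p = 2e-05, adjusted p = 0.00294). It was 0.898 without the 2 mice farthest out, 0.933 in batch 1 and 0.894 in batch 2. With the 9 dendritic cell markers r was 0.914 (permutation p = 3e-05, adjusted p = 0.00441, rho = 0.86, permutation p = 4e-05, adjusted p = 0.00294), 0.909 without 2 mice, 0.906 in batch 1 and 0.934 in batch 2. All 11 T cell and all 9 dendritic cell markers were kept, so each had reads in at least 6 of 12 mice. The part of RNA from such cells in the Slfn8 values was not tested.

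**Figure D4:**
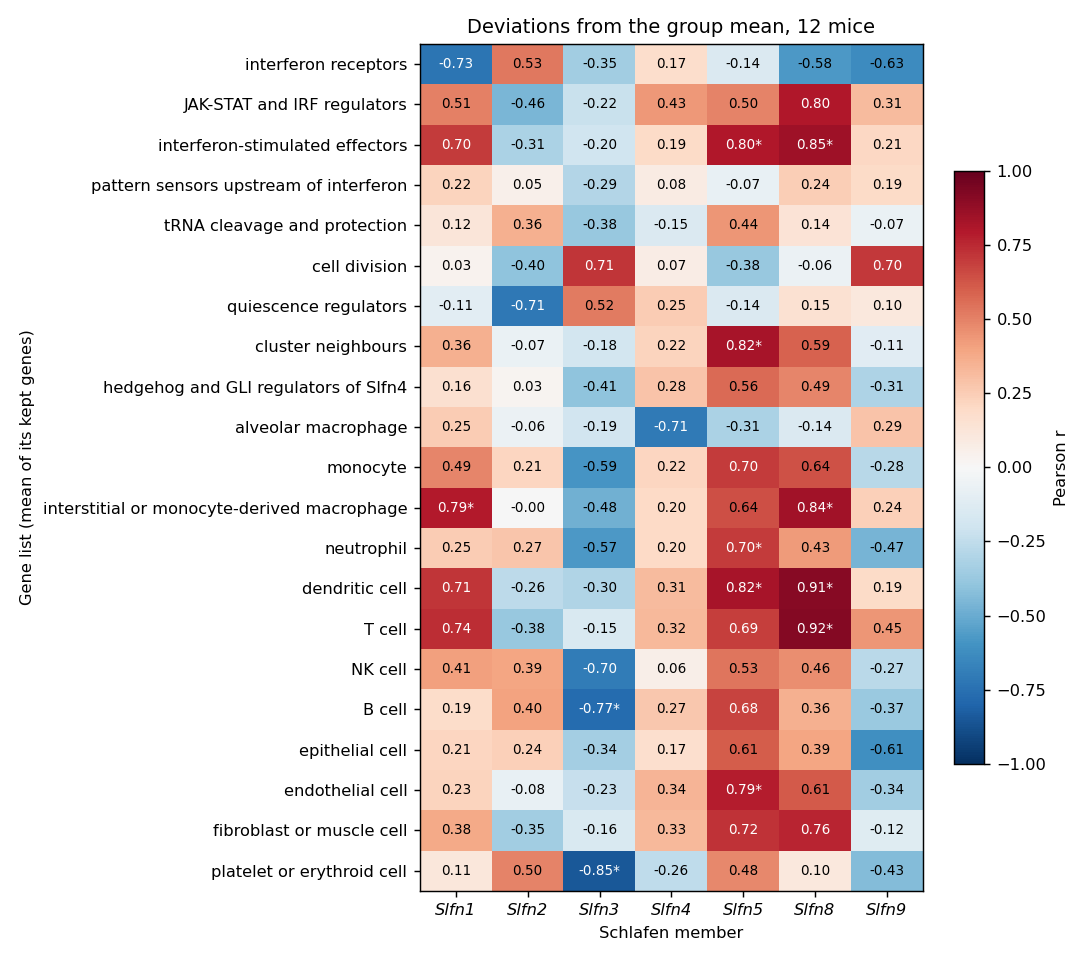
The heat map gives Pearson r over 12 mice between each member (columns) and the mean of each gene list (rows), both as deviations from the group mean; colour runs from -1 (blue) to 1 (red), and an asterisk marks an adjusted p under 0.05 over 147 relations. Slfn8 reaches 0.915 with T cell and 0.914 with dendritic cell markers, and Slfn9 has no marked relation.

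The mean of the interferon-stimulated effectors correlated with Slfn8 (r = 0.85, permutation p = 0.00124, adjusted p = 0.0304, rho = 0.797, permutation p = 0.00473, adjusted p = 0.0695), with 0.843 left without 2 mice, 0.822 in batch 1 and 0.899 in batch 2. For Slfn5 r was 0.804 (permutation p = 0.00339, adjusted p = 0.0492, rho = 0.832, permutation p = 0.0031, adjusted p = 0.0623), with 0.737 without 2 mice, 0.617 in batch 1 and 0.955 in batch 2. By Spearman's rho neither of these passed adjustment. Slfn9 had r = 0.206 with the same list, with 0.887 in batch 1 and -0.279 in batch 2. Over single genes of the list the median r was 0.484 for Slfn8, 0.441 for Slfn5, 0.394 for Slfn1, 0.126 for Slfn9, 0.115 for Slfn4, -0.158 for Slfn3 and -0.18 for Slfn2, while the median over all kept genes lay between -0.0122 and 0.0166 in the 7 members.

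Slfn5 also passed with dendritic cell (r = 0.822), endothelial (0.786) and neutrophil (0.699) markers and with the cluster neighbours (0.822), with adjusted permutation p-values of 0.0304, 0.0492, 0.0492 and 0.0492. By Spearman's rho the adjusted permutation p-values were 0.0578, 0.0578, 0.0623 and 0.0777, and none of these 4 passed. Slfn1 and Slfn8 passed with markers of interstitial or monocyte-derived macrophages (r = 0.79 and 0.842, adjusted permutation p = 0.0492 and 0.0184). By rho the adjusted permutation p was 0.0777 for Slfn1, which did not pass, and 0.0279 for Slfn8. Slfn3 went the other way. It passed with negative values for platelet or erythroid markers (r = -0.85, adjusted permutation p = 0.0184) and B cell markers (r = -0.77, adjusted permutation p = 0.0492). By rho the first passed (-0.881, adjusted permutation p = 0.0353) and the second did not (-0.531, adjusted permutation p = 0.347). The lists are measured in the same libraries, so these relations are not separate observations.

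The relation of Slfn9 with cell division genes rested on few mice. The median r of Slfn9 with the 24 genes was 0.678, and 23 were positive. With their mean, r over 12 mice was 0.705 (permutation p = 0.0271, adjusted p = 0.133, rho = 0.469, permutation p = 0.138, adjusted p = 0.462). Without the 2 mice farthest out, filtered-air mice 4 and 6, it fell to 0.184, and it was 0.137 in batch 1 and 0.956 in batch 2. Slfn4 and alveolar macrophage markers likewise rested on few mice. Their r was -0.708 (permutation p = 0.0105, adjusted p = 0.0872, rho = -0.664, permutation p = 0.0264, adjusted p = 0.15), with -0.339 left without 2 mice, -0.127 in batch 1 and -0.888 in batch 2. Slfn3 had r = 0.713 with the cell division list (permutation p = 0.017, adjusted p = 0.0978, rho = 0.594, permutation p = 0.0602, adjusted p = 0.26), 0.677 without 2 mice, and 0.727 and 0.723 in the batches.

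**Figure D5:**
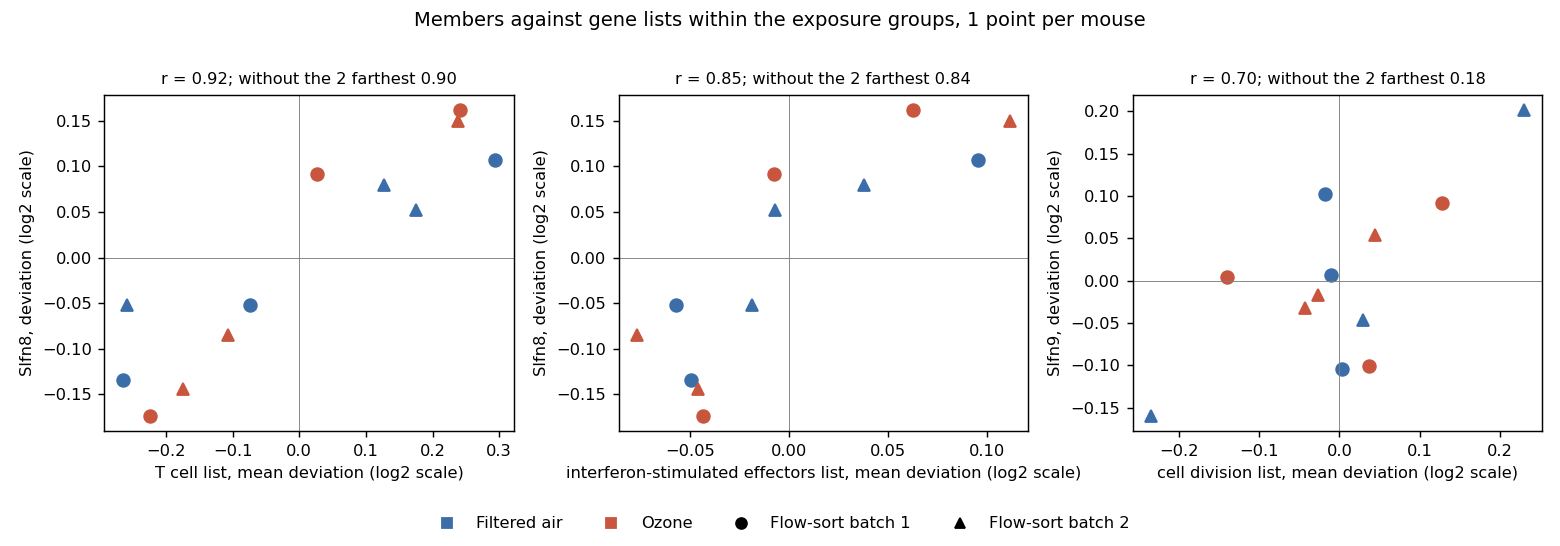
Points are the 12 mice (blue filtered air, red ozone, circles and triangles for flow-sort batches 1 and 2), with the mean deviation of a gene list on the horizontal axis and the deviation of 1 member on the vertical axis, both on the log2 scale. Slfn8 rises with the T cell list (r = 0.915) and the interferon-stimulated effectors (r = 0.85) over the whole range, whereas the Slfn9 relation with cell division falls from 0.705 to 0.184 without 2 mice.

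Markers of cells outside the sorted type were compared between the groups. Of 11 T cell markers 0 were called in limma, with the list's mean between -0.25 and 0.22 in ozone mice and between -0.26 and 0.29 in filtered-air mice. The smallest p was that of Cd5 (difference -0.051, adjusted p = 0.709). Dropping filtered-air mouse 5 gave a Cd5 difference of -0.022, dropping filtered-air mouse 4 gave -0.032, and dropping ozone mouse 2 or 5 gave -0.029 or -0.082. Dendritic cell markers had 0 of 9 called, with means between -0.22 and 0.095 and between -0.18 and 0.20. Monocyte markers had 0 of 10 called, between -0.15 and 0.037 and between -0.18 and 0.33. Of 8 kept neutrophil markers 1 was called higher, Cxcr2 (difference 0.79, SE 0.0909, adjusted p = 0.000451), while Ly6g, Camp and Ngp did not pass the filter. Of 10 epithelial markers 1 was called lower, Epcam (difference -0.55, SE 0.0992, adjusted p = 0.0062). The Cxcr2 call was lost with a variance trend, the Epcam call with quantile normalization, and both in either batch alone. Markers of interstitial or monocyte-derived macrophages (10), NK cells (8), B cells (8), endothelial cells (8), fibroblasts or muscle cells (8) and platelets or erythroid cells (7) had 0 called in each list. The B cell mean lay between -0.33 and -0.052 in ozone mice and between -0.21 and 0.33 in filtered-air mice. Of its 8 genes, 5 were at an unadjusted p under 0.05 in limma, where 3283 of all 19633 genes were. The platelet or erythroid mean lay between -0.059 and 0.22 and between -0.096 and 0.094. The part of such cells in the Schlafen values was not tested.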

How the data were processed

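RNA was measured in flow-sorted alveolar macrophages of 12 mice, with stranded mRNA libraries per the labels. The submitters' processing notes name cutadapt, STAR 2.7.7a, Salmon 1.5.2, DESeq2 1.26.0, R 3.6.0 and limma 3.42.2 with the mouse build mm10 (GRCm38); their roles are not given in the sources used here. The authors deposited log2-scale variance-stabilized values corrected for flow-sort batch. In every gene the filtered-air mean is 0, so abundance was not kept, and batch correction before testing can make errors look smaller.

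Of 55291 genes, 25444 varied and 19633 were kept, having a value above the minimum shared within a batch in at least 6 of 12 mice (tolerance 1e-06). Differences were fitted with limma 3.58.1 in R 4.3.3 on exposure plus batch, without a variance trend, and adjusted by Benjamini-Hochberg at 0.05. Correlations used 100000 permutations within groups. Members, lists and tests were chosen with earlier results of these data known. Named genes were, per pathway list, up to 3 called genes with the smallest p (1 per marker list), or the smallest p where none was called. Each member's 3 most correlated genes were also named. Relations with list means and the T cell covariate were added after seeing the data. Alternatives were another scaling, filters, covariates, single batches and leaving out each mouse. The fit was tested on simulated data. Values of some genes are not reported here. Coding sequences came from GENCODE M21 and start-site windows from RefSeq GRCm38.p6.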

Additional observations from a re-analysis of the deposited data

Results flagged for a closer look

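Among the members and named genes, 66 combinations of gene and group were screened for a single mouse far from the other 5, and 1 stood apart, where chance alone gives about 1 in 20, or 3.3. Il5ra, the interleukin-5 receptor of eosinophils, was at -0.19 in ozone mouse 5. Of the 14 combinations of a Schlafen member and a group, 0 stood apart in this way.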

How the results depend on the processing

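The members were chosen with this contrast known, so their values across the 23 alternatives are a description. The Slfn9 difference ranged from 0.46 to 0.60, and from 0.52 to 0.60 without 1 mouse. It stayed at 0.551 with other filters, a variance trend, a robust fit, no batch covariate or a replicate block. In a balanced design these do not enter the estimate. Its SE was 0.104 with a variance trend, against 0.0586 in the main fit. Slfn9 was called in 22 of the 23, the exception being batch 2 alone. Slfn1, near 0, changed sign in 8 of 23. Over all genes, 834 were called (473 higher, 361 lower). With quantile normalization 171 were called (106 higher, 65 lower). With a variance trend 611 were called, of which 221 lower. In batch 1 alone 90 were called (71 higher, 19 lower). In batch 2 alone 0 were called (0 higher, 0 lower), with 1800 at an unadjusted p under 0.05 in limma. Without 1 mouse the count ran from 538 (without filtered-air mouse 1) to 751, with 326 to 456 higher and 212 to 312 lower. With the T cell marker mean as a covariate, added after seeing the data, 999 were called, Slfn9 was at 0.56 (SE 0.0554) and Slfn8 at 0.072 (SE 0.0383); 0 of those 11 markers were called between the groups, so this fit is no test of T cell RNA. With the replicate number as a block 853 were called, and of the named genes Ifi27l2a, Stat3 and Myd88 were not; same-numbered mice are different animals, correlations of their deviations ran from -0.00263 to 0.284, and 4 of 6 were over 0.1. Among member pairs, 1 passed adjustment, 0 with deviations from group means within batches (4 unadjusted), and 0 to 2 without 1 mouse (0 without ozone mouse 1 or 2, 2 without ozone mouse 6). The cause of these changes was not tested. Named genes kept direction in every alternative run, with 86 of 620 values losing a call and 4 gaining one. Direction could not change with another filter or variance setting, without the batch covariate or with the replicate block, which leave each difference as it was.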
